A study of Macaca mulatta with 24 samples.

Results

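The genes described here are 10 genes of ferritin and iron handling, measured by RNA-seq in omental white adipose tissue (WAT) of female rhesus macaques. They are the ferritin chains FTL and FTH1, the ferritin receptor NCOA4, the uptake genes TFRC, SLC11A2 and STEAP4, the export genes SLC40A1 and CP, the heme-degrading enzyme HMOX1 and the iron sensor IREB2. Each is the row of the count table whose Ensembl ID maps to that symbol, and where a symbol had several IDs the one with most counts was to be taken. Every symbol mapped to 1 ID, so the 10 genes were 10 of the 32386 rows. The IDs are ENSMMUG00000003909 (FTL), ENSMMUG00000015146 (FTH1), ENSMMUG00000015182 (NCOA4), ENSMMUG00000002114 (TFRC), ENSMMUG00000022961 (SLC11A2), ENSMMUG00000022697 (STEAP4), ENSMMUG00000003506 (SLC40A1), ENSMMUG00000005529 (CP), ENSMMUG00000007221 (HMOX1) and ENSMMUG00000045680 (IREB2). The set was put together with earlier results of these libraries known, and the study itself had picked out FTL for its interaction of testosterone and diet. The tests below therefore describe these animals and are not independent evidence for the set.

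The controls (C) carried cholesterol implants and ate monkey chow. Animals of group T carried testosterone implants and ate chow, those of group WSD carried cholesterol implants and ate a high-fat Western-style diet, and those of group T + WSD had testosterone implants together with that diet. Each group held 6 animals with 1 library each, the treatments had run for 3 years, and the age in the labels was 4 years in every group, whereas the study's methods give a higher age. The animals were young adult females that the study selected from larger groups because their fat mass and insulin were typical of their group, so the spread within a group may understate that of the colony. The implants and the diet act on the whole animal, and the biopsy holds every cell type of the depot.

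Iron enters most cells bound to transferrin through the transferrin receptor, is reduced from its ferric to its ferrous form, and crosses the endosomal membrane through a divalent metal transporter. What is not used is stored inside ferritin, a hollow shell built of light and heavy chains, or leaves through ferroportin with the help of a ferroxidase. Iron regulatory proteins bind stem loops in these transcripts when iron is scarce, which blocks translation of the ferritins and protects the transferrin receptor transcript from decay, so that transcript levels are only part of the control. In adipose tissue iron is held by adipocytes and by macrophages, which also take in iron from heme.

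Total counts ran from 6899185 to 28270776 per library, with a median of 20630512.5, and 15207 genes passed the filter on low counts. Levels are given as counts per 1000000 counts (CPM), scaled to the normalized library size and not to gene length, so they can be compared between animals and not between genes. In 8 libraries, 2 in each group, the gene ENSMMUG00000038258 took 9.92% to 54.7% of all counts, against 0.879% to 2.51% in the others. They are called the library batch here, a grouping set by a cut at 5% and not taken from the labels. These libraries were also the shallowest, with at most 17538200 counts, against at least 20177600 in the others. Values inside and outside this library batch are given where a result rests on them. The adipocyte marker ADIPOQ was detected in every library, with at least 381 CPM. A gene was called when its adjusted p was under 0.05 and its fold change over 1.5, and the interaction was called at an adjusted p under 0.1. Of the 10 genes, 9 passed the filter, and IREB2 did not. In this bulk tissue, fewer cells of a type and less RNA per cell cannot be told apart.

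Ferritin transcripts were higher in T + WSD than in the controls. The fold change of the light chain was the larger, a difference between the chains that was not tested. FTL encodes the ferritin light chain, which helps to form the iron core. FTL ranged from 279 to 446 CPM in C (median 342), from 324 to 423 in T (median 380), from 310 to 493 in WSD (median 370) and from 541 to 850 in T + WSD (median 680). Each of the 6 T + WSD animals exceeded every animal of the other groups, whereas C, T and WSD overlapped. The mean of C was 353 ± 78.0 CPM, that of T 379 ± 38.9, that of WSD 385 ± 63.7 and that of T + WSD 696 ± 113 (SD, n = 6). Against C, FTL rose 1.97-fold in T + WSD (log2 fold change 0.98, SE 0.14, adjusted p = 0.00226). The log2 differences of the means were close to each other outside and inside the library batch, 0.96 and 1.05. FTL was also higher in T + WSD than in WSD (log2 fold change 0.85, SE 0.14, adjusted p = 0.00994) and than in T (0.88, SE 0.14, adjusted p = 0.00247).

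**Figure D1:**
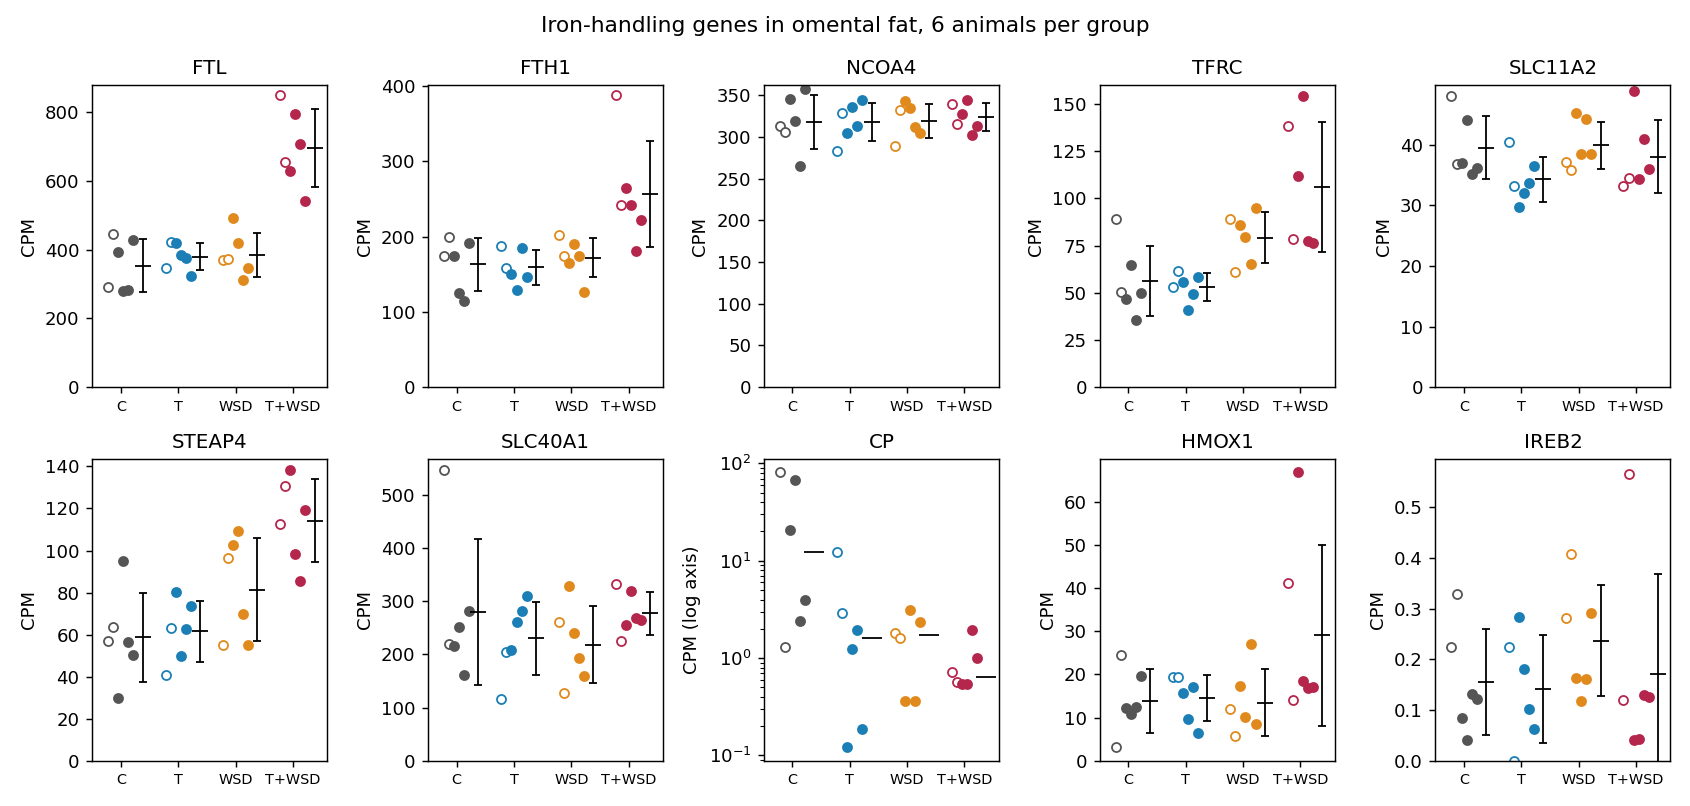
CPM of the 10 genes in each animal, on the y axis, by group on the x axis; open circles are libraries of the library batch, filled circles the others, and bars to the right of each group are the mean and SD (for CP, drawn on a log axis, the median alone). FTL lies between 541 and 850 CPM in T + WSD, above every other animal, NCOA4 stays between 265 and 358 CPM in all groups, and CP exceeds 20 CPM in 3 controls only.

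FTH1 encodes the heavy chain, which carries the ferroxidase activity of the shell. Its levels ran from 115 to 200 CPM in C (median 174), from 128 to 187 in T (median 154), from 126 to 203 in WSD (median 175) and from 180 to 388 in T + WSD (median 242). In T + WSD 5 of 6 animals lay above every control, and 1 lay within the controls' range. Its mean was 163 ± 35.1 CPM in C, 159 ± 22.98 CPM in T, 172 ± 26.2 CPM in WSD and 257 ± 70.4 CPM in T + WSD (SD, n = 6). FTH1 thus rose 1.57-fold in T + WSD against C (log2 fold change 0.65, SE 0.16, adjusted p = 0.0118). The highest animal, T + WSD 7 with 388 CPM, was also the highest for FTL. Without that animal the log2 fold change was 0.50 (adjusted p = 0.0333), and the call was lost because the fold change no longer exceeded 1.5. The same happened without C4 (0.58, adjusted p = 0.0261) and without C5 (0.57, adjusted p = 0.0195). Outside and inside the library batch the log2 differences were 0.60 and 0.72. FTH1 rose in T + WSD against T as well (0.69, SE 0.16, adjusted p = 0.0206), a call lost without T + WSD 7 (0.53, adjusted p = 0.0483), and against WSD it was not called (0.58, SE 0.16, adjusted p = 0.0675).

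The ratio of the chains within a library does not depend on the library size. The log2 ratio of FTL to FTH1 CPM averaged 1.11 ± 0.19 for the controls, 1.26 ± 0.28 for T, 1.16 ± 0.31 for WSD and 1.46 ± 0.32 for T + WSD (SD, n = 6). In C it spanned 0.74 to 1.30 and in T + WSD 1.13 to 1.97, so the groups overlapped. These ratios were not tested, since FTL had been chosen on these animals. Both ferritin chains belong to families with many near-identical processed copies in primate genomes, and reads shared with such copies may be split or lost by the counting, so the absolute levels are uncertain.

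**Figure D2:**
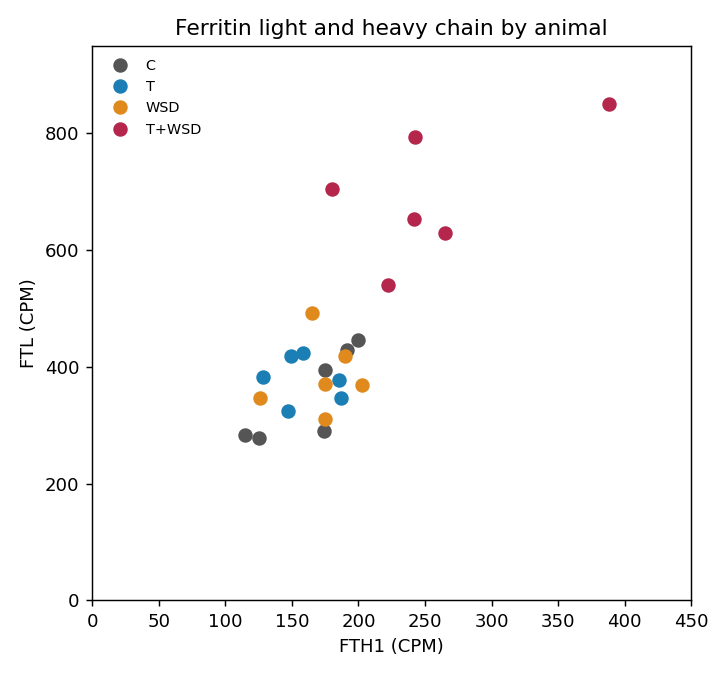
FTL against FTH1, both in CPM on linear axes from 0, with 1 point per animal coloured by group. The 6 T + WSD animals lie above 540 CPM of FTL, and the animals of the other groups below 493, while on the FTH1 axis the lowest T + WSD animal (180 CPM) falls inside the range of the controls.

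NCOA4, the cargo receptor that takes ferritin to the lysosome when iron is released, was level across the groups. It ranged from 265 to 358 CPM in C (median 316), from 283 to 344 in T (median 321), from 289 to 342 in WSD (median 322) and from 302 to 345 in T + WSD (median 321). The groups overlapped throughout, and the means lay between 318 and 324 CPM. The log2 fold change in T + WSD against C was 0.027 (SE 0.076, adjusted p = 0.853). NCOA4 was also the steadiest of the 9 tested genes within groups: its SD of log2 CPM was 0.11, lower than in all but 5.93% of the 776 tested genes within 1 log2 unit of its level.

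The uptake genes did not move together. TFRC, the transferrin receptor, ranged from 35.7 to 88.8 CPM in C (median 50.1), from 40.7 to 61.7 in T (median 54.5), from 60.8 to 95.1 in WSD (median 82.6) and from 76.1 to 154 in T + WSD (median 95.1). In T + WSD 3 of 6 animals lay above every control and all 6 above every T animal, and the 3 highest were T + WSD 10, 7 and 9. TFRC rose in T + WSD against C (log2 fold change 0.92, SE 0.20, adjusted p = 0.00616) and against T (0.998, SE 0.20, adjusted p = 0.0100). The log2 difference from C was 1.06 outside the library batch and 0.64 inside it. In WSD alone TFRC had a log2 fold change of 0.50 against C (SE 0.20) that did not pass the test (adjusted p = 0.198), and T + WSD differed from WSD by 0.42 (SE 0.20, adjusted p = 0.245).

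STEAP4, a metalloreductase of adipocytes that reduces iron and copper, had, like TFRC, its highest mean in T + WSD and its next highest in WSD. It ranged from 30.0 to 95.1 CPM in C (median 56.7), from 40.9 to 80.2 in T (median 62.9), from 54.9 to 109 in WSD (median 83.1) and from 85.6 to 138 in T + WSD (median 116). In T + WSD 5 of 6 animals lay above every control, and all 6 lay above every T animal. The log2 fold change against C was 0.96 (SE 0.23, adjusted p = 0.00892), and the within-batch differences were 1.02 outside and 1.01 inside the library batch. Against T it was 0.89 (SE 0.23, adjusted p = 0.0268), with an adjusted p of 0.0547 to 0.0605 once T13, T16, T + WSD 8 or T + WSD 9 was left out. WSD against C gave 0.47 (SE 0.23, adjusted p = 0.266), which did not pass the test.

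SLC11A2, the divalent metal transporter of the endosome and the plasma membrane, ranged from 35.2 to 48.1 CPM in C, from 29.7 to 40.5 in T, from 35.8 to 45.2 in WSD and from 33.2 to 48.9 in T + WSD. The medians lay between 33.4 and 38.4 CPM and the groups overlapped. In T 4 of 6 animals were below every control, and the log2 fold change of T against C was -0.21 (SE 0.10, adjusted p = 0.588). In T + WSD against C it was -0.054 (SE 0.10, adjusted p = 0.772), and neither passed the test.

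Among the export genes, CP was lower in the combined group and SLC40A1 was not called. SLC40A1 encodes ferroportin, the iron exporter of cells. It ranged from 161 to 547 CPM in C (median 236), from 116 to 309 in T (median 235), from 128 to 328 in WSD (median 217) and from 226 to 332 in T + WSD (median 267). The value of 547 CPM belonged to C1 alone, and the next highest control had 282 CPM. The log2 fold change of T + WSD against C was -0.0090 (SE 0.26, adjusted p = 0.987), and without C1 it was 0.32 (adjusted p = 0.392). Outside the library batch the difference was 0.31 and inside it -0.34.

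CP encodes ceruloplasmin, the copper-containing ferroxidase that oxidizes exported iron. It ranged from 1.31 to 80.9 CPM in C (median 12.4), from 0.122 to 12.2 in T (median 1.60), from 0.361 to 3.16 in WSD (median 1.73) and from 0.536 to 1.93 in T + WSD (median 0.641). C1 with 80.9 CPM, C4 with 67.2 and C3 with 20.8 stood above all other animals, and C2, C5 and C6 lay between 1.31 and 3.96 CPM. In T + WSD 5 of 6 animals were below every control, at 2 to 24 counts per library, and T + WSD 11, with 45 counts, was not. CP fell in T + WSD against C, by 4.98 on the log2 scale (SE 1.09, adjusted p = 0.00616), and the within-batch differences of log2 CPM, computed with a prior count of 2 that shrinks low values, were -3.48 outside and -3.86 inside. The log2 fold changes of T (-3.32, SE 0.98, adjusted p = 0.519) and WSD (-4.20, SE 1.03, adjusted p = 0.131) against C did not pass the test. CP in T + WSD was not called against WSD (-0.78, SE 1.05, adjusted p = 0.720) or against T (-1.66, SE 1.03, adjusted p = 0.319). Its SD of log2 CPM within groups was 1.80, higher than in 97.2% of the 2171 tested genes of similar level.

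HMOX1, heme oxygenase 1, frees iron from heme and is high in macrophages that clear red cells. It ranged from 3.32 to 24.6 CPM in C (median 12.3), from 6.47 to 19.4 in T (median 16.3), from 5.69 to 27.1 in WSD (median 11.1) and from 14.1 to 66.8 in T + WSD (median 17.9). T + WSD 9 with 66.8 CPM and T + WSD 7 with 41.2 lay above every control, and the other T + WSD animals, at 14.1 to 18.5 CPM, lay inside the controls' range. The log2 fold change against C was 1.10 (SE 0.45, adjusted p = 0.0925) and did not pass the test. It was 1.11 against WSD (adjusted p = 0.165) and 1.01 against T (adjusted p = 0.156). Without T + WSD 9 these log2 fold changes were 0.66 against C, 0.67 against WSD and 0.57 against T.

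IREB2, an iron regulatory protein that is degraded when iron is plentiful, had 69 counts over the 24 libraries. Its counts per animal ran from 1 to 4 in C, from 0 to 7 in T, from 2 to 7 in WSD and from 1 to 3 in T + WSD. T + WSD was at or under the floor of 3 counts in every library, and the T library at 0 allows up to 3 counts. No fold change is given, and a difference in IREB2 was not detectable at these counts. The row may be a partial gene model of the annotation, which was not checked here, so its counts are no measure of how much IREB2 the tissue expressed.

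**Figure D3:**
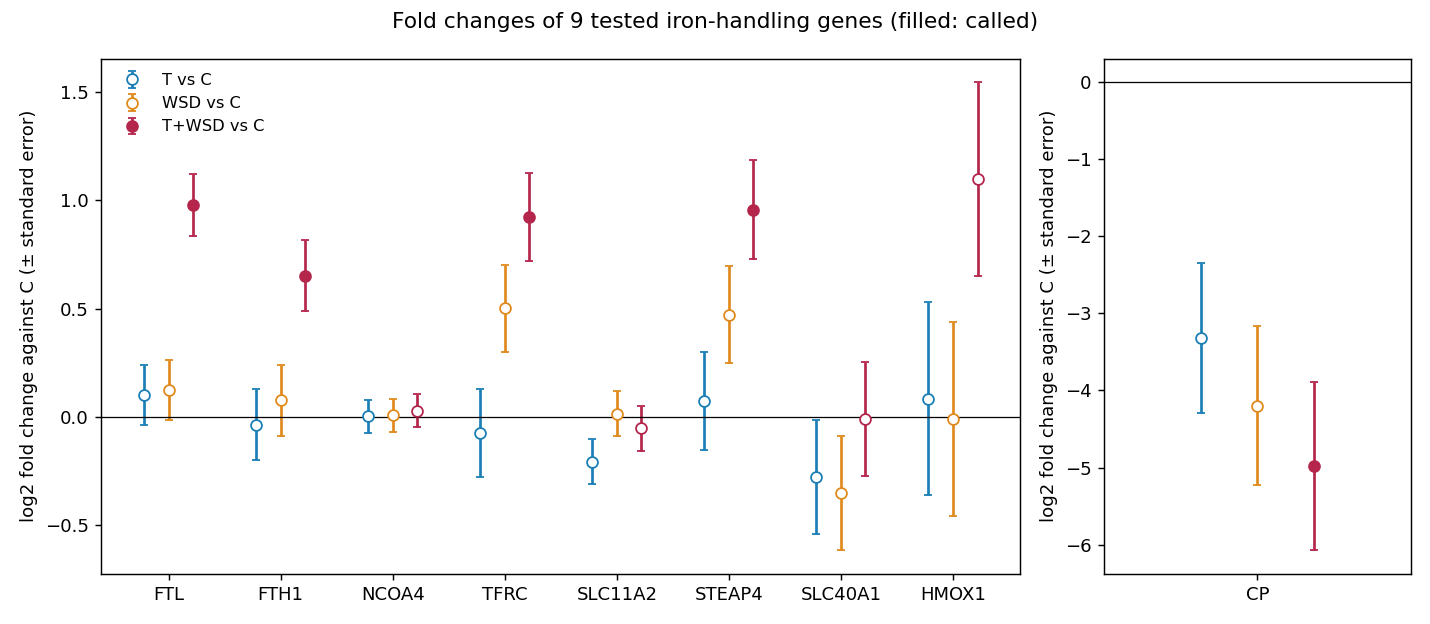
log2 fold change against C, on the y axis, of the 9 tested genes, on the x axis, for T, WSD and T + WSD, with SE as bars; filled points were called, and CP has a panel and scale of its own. The called points are FTL (0.98), FTH1 (0.65), TFRC (0.92) and STEAP4 (0.96) above 0 and CP (-4.98) below it, all in T + WSD, while NCOA4 does not exceed 0.027.

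Set side by side, T + WSD against C called 5 of the 9 tested genes, 4 higher and 1 lower, where 10% of all tested genes were called (4.72% higher and 5.29% lower). The median log2 fold change of the 9 genes was 0.65, and that of all tested genes was -0.04. FTL in T + WSD lay wholly above C, T and WSD, which 3.49%, 2.99% and 1.47% of all tested genes did in the respective comparison, and TFRC and STEAP4 lay wholly above T. T + WSD against T called 4 of 9 (FTL, FTH1, TFRC and STEAP4, all higher), where 3.77% of all tested genes were called and 2.34% higher. T + WSD against WSD called 1 of 9, FTL, where 0.815% were called and 0.434% higher. These shares are given beside the genes' counts as a description, because the set was proposed with such results known.

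Either treatment alone called none of the 9 genes by edgeR, in a table where 0% of tested genes were called by the same rule. At an unadjusted p under 0.05, WSD against C had 3 of them (TFRC and STEAP4 higher, CP lower), where 18.5% of all tested genes passed, and T against C had 1 (CP), where 8.63% passed. DESeq2 called CP in WSD against C, where it called 238 genes, 1.58% of those it tested. In T against C it called none of the 9, and 7 genes over the whole table. The comparisons with C share the same 6 control animals. For FTL the log2 fold changes of T, WSD and T + WSD were 0.10, 0.12 and 0.98. In the same order the values were -0.036, 0.077 and 0.65 for FTH1, -0.075, 0.50 and 0.92 for TFRC and 0.073, 0.47 and 0.96 for STEAP4.

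The interaction of testosterone and diet asks whether the effect of T on the diet differed from its effect on chow. It called none of the 9 genes, where 0.809% of all tested genes were called, and 2 of the 9, FTL and FTH1, had an unadjusted p under 0.05, where 13.5% of all tested genes did. The interaction of FTL was 0.75 on the log2 scale (SE 0.20, adjusted p = 0.111), and that of FTH1 was 0.61 (SE 0.23, adjusted p = 0.241). DESeq2 called FTL (0.77, adjusted p = 0.0239) and no other of the genes, where it called 2.77% of all genes it tested. FTL also passed without C4 (0.81, adjusted p = 0.0891) or without WSD21 (0.83, adjusted p = 0.0461). The adjusted p of FTL lay between 0.0239 and 0.464 over all settings other than left-out animals.

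Markers of several cell types moved with these genes. The lipid-associated macrophage list, of cells that store and digest lipid, had 6 of its 7 genes called in T + WSD against C, 5 higher and CD9 lower. Its summed level was 868 to 1654 CPM in C and 1004 to 1609 in T. It was 1183 to 1772 in WSD and 1617 to 4389 in T + WSD. T + WSD 7, highest for both ferritin chains, was highest here too. T + WSD 12, with the next highest sum (2306 CPM), had the lowest FTL of its group (541 CPM). T + WSD 11 had the lowest sum of its group (1617 CPM) and 706 CPM of FTL. Of the list's defining markers, GPNMB (log2 fold change 1.34, adjusted p = 0.0155) and SPP1 (2.47, adjusted p = 0.0220) rose and TREM2 had 1.27 (adjusted p = 0.0751). The general macrophage list had 1 of 10 genes called, MSR1, and overlapped (202 to 1247 CPM in C and 552 to 1042 in T + WSD). When the mean of the lipid-associated macrophage list was a term of the fit, the log2 fold change against C was 0.73 for FTL, 0.21 for FTH1 and -0.037 for HMOX1. With this term no gene of the whole table was called in T + WSD against C, and the same was seen in that comparison with the mean of the mesothelial, the adipocyte or the endothelial list as a term. With the mean of the general macrophage list as a term, 9.87% of all tested genes were called in T + WSD against C. FTL and FTH1 were among them. The part of macrophages in the ferritin result was not tested beyond these fits.

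**Figure D4:**
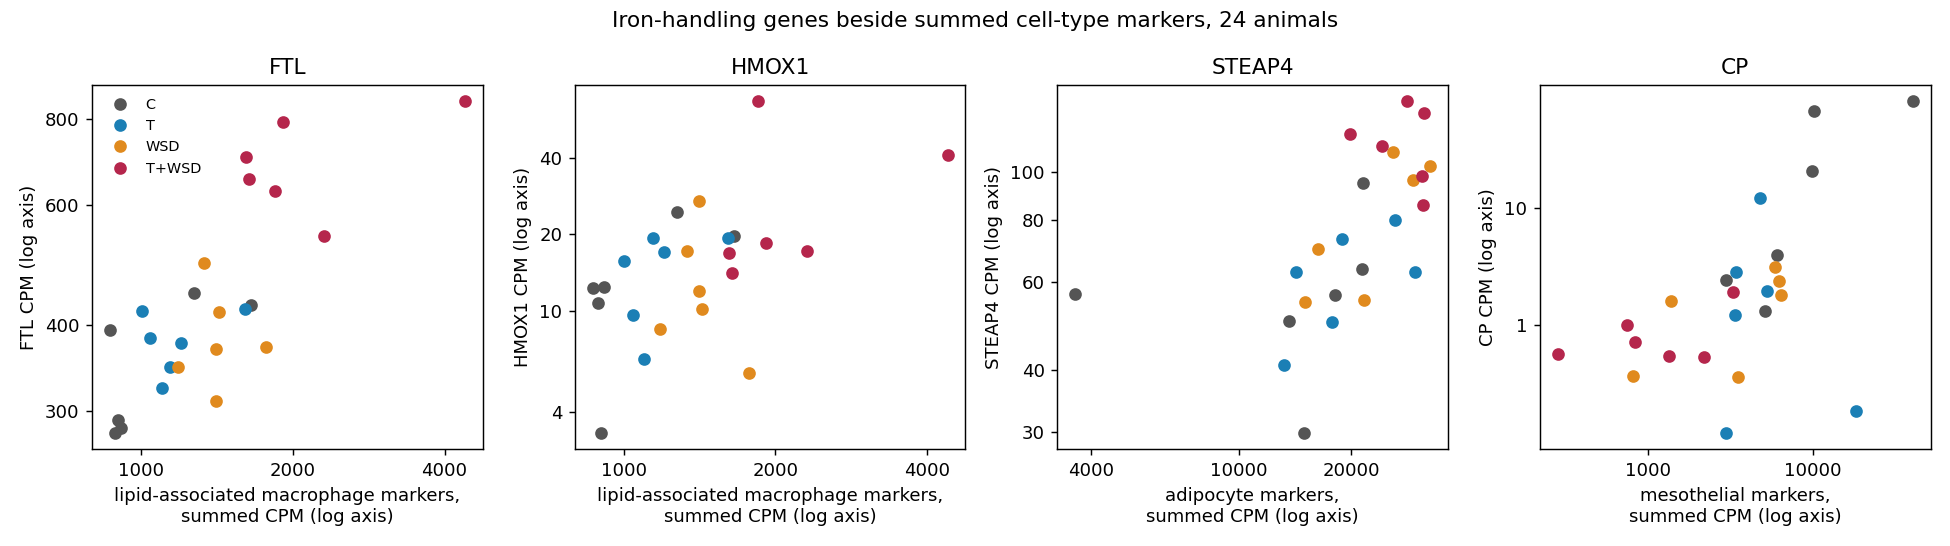
CPM of FTL, HMOX1, STEAP4 and CP, on log y axes, against the summed CPM of the lipid-associated macrophage, adipocyte and mesothelial marker lists named under each panel, on log x axes, with 1 point per animal. FTL and the macrophage markers are both highest in T + WSD 7 (850 and 4389 CPM), and CP and the mesothelial markers are both highest in C1 (80.9 and 40066 CPM). T + WSD 12 has the next highest macrophage marker sum (2306 CPM) and the lowest FTL of its group (541 CPM).

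Mesothelial markers, of the cells that cover the omentum, fell with CP. Of the 10 mesothelial genes measured, 9 were called lower in T + WSD against C, and their summed level was 2963 to 40066 CPM in C, 2972 to 18074 in T, 820 to 6368 in WSD and 286 to 3285 in T + WSD. C1, C4 and C3, the 3 animals with most CP, also had 3 of the 4 highest mesothelial sums, 40066, 10171 and 9865 CPM, whereas T18, with 18074 CPM, had 0.188 CPM of CP. With the mesothelial mean as a term the log2 fold change of CP was -1.26 (adjusted p = 1), where 0% of all tested genes were called. The hepatocyte list overlapped (4.44 to 77.6 CPM in C and 16.1 to 83.1 in T + WSD), and 1 of its 2 tested genes, ALB, was called higher. The sum of 83.1 CPM belonged to T + WSD 11 alone, and the other animals of that group had 16.1 to 33.0 CPM. The part of mesothelial cells in the CP result was not tested.

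Some adipocyte and endothelial markers were called beside STEAP4 and TFRC. The adipocyte list had 2 of 10 genes called higher in T + WSD against C, LEP and FABP4, where 4.72% of all tested genes were called higher, and GPD1 and PCK1 had log2 fold changes of -0.28 and -0.23 that did not pass the test. Its summed level was 3621 to 21460 CPM in C and 19821 to 31392 in T + WSD. The value of 3621 CPM belonged to C1, the animal with the highest mesothelial sum, and every other animal had at least 13176 CPM. The endothelial list had 4 of 8 genes called higher, with 960 to 1628 CPM in C and 1782 to 2812 in T + WSD. With the adipocyte mean as a term STEAP4 had a log2 fold change of 0.76 and TFRC of 1.15, and with the endothelial mean they had 0.51 and 1.03. For red cells, the source of heme iron, the erythroid and blood list had 1 of 7 tested genes called, AHSP, which was lower, and its summed level overlapped, at 28.5 to 170 CPM in C and 47.0 to 226 in T + WSD. With its mean as a term the fit called 1214 genes over the whole table in T + WSD against C. Of the remaining lists, 1 of 8 fibroblast genes was called higher in T + WSD against C, DPT, and 2 of 5 neutrophil genes lower, S100A8 and S100A9. For lymphocytes, 0 of 4 tested genes were called in the list of T and NK cells and in that of B and plasma cells.

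Over the 24 animals FTL and FTH1 had a Spearman rho of 0.71, which was 0.45 once each group's mean had been removed. HMOX1 had a rho of 0.55 with each of them (0.36 with FTL and 0.47 with FTH1 within groups). TFRC and STEAP4 had 0.58 overall and 0.08 within groups, and CP and STEAP4 had -0.52 and -0.24. NCOA4 and SLC40A1 had 0.46 and 0.41. These are descriptions over animals that share their treatment groups and library batch.

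Likeness of pattern was measured by Spearman rho over the 24 animals against 11680 tested genes with a symbol and at least 1 CPM on average. Among those most like FTL were CRB1 (0.86) and ZBTB37 (0.84), with 0.71 and 0.55 within groups. Those most like FTH1 were POPDC3 (0.86), C1H1orf127 (0.85) and MSR1 (0.84), a scavenger receptor of macrophages, with 0.59 to 0.72 within groups. For HMOX1 they were ARHGAP4 (0.91), WDFY4 (0.88) and CTSA (0.88), a lysosomal protease, and these kept rhos of 0.79 to 0.87 within groups. STEAP4 was most like SPTBN1 (0.90), DIPK2B (0.90) and KPNA4 (0.88), with 0.65 to 0.75 within groups. TFRC was most like ACOT9 (0.75), OXTR (0.72) and MYO6 (0.72), with 0.48 to 0.50 within groups. SLC40A1 was most like OSBPL8 (0.84), ANKRD50 (0.82) and GUCY1A2 (0.81). SLC11A2 was most like HEATR5A (0.73), AGFG1 (0.71) and XPOT (0.69). NCOA4 was most like AKAP10 (0.77), PITHD1 (0.72) and SLC44A5 (0.70), and CP like QTRT2 (0.75), CYP21A2 (0.71) and FYB2 (0.71). For SLC40A1, SLC11A2, NCOA4 and CP the rhos within groups ran from 0.58 to 0.86.

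The other genes of iron and heme metabolism were called in both directions. Of 96 further genes named in 9 lists, 76 were in the table and 68 were tested. In T + WSD against C 7 of these were called, 2 higher and 5 lower, which is 10.3% beside 10% over all tested genes, and their median log2 fold change was -0.04. By list, the calls were 1 of 9 genes of iron uptake and reduction, 1 of 6 of export and ferroxidases, 0 of 6 of iron chaperones and ferritin turnover, 1 of 9 of iron sensing, 2 of 8 of the hepcidin axis, 0 of 8 of heme uptake and breakdown, 1 of 8 of heme synthesis, 1 of 11 of mitochondrial iron and 1 of 6 further transcripts reported to carry an iron-responsive element, each out of the genes tested. EPAS1 was in both the list of iron sensing and the last of these and was counted once in the 7. Among uptake genes, SLC39A8, a zinc transporter that also carries iron and manganese, fell from 220 ± 182 CPM in C to 48.1 ± 29.7 in T + WSD (SD, n = 6; log2 fold change -2.18, adjusted p = 0.0101), with 1 of 6 animals below every control. Among ferroxidases, HEPHL1 fell from 8.53 ± 10.1 to 1.41 ± 1.45 CPM (-2.47, adjusted p = 0.0383), and HEPH, hephaestin, was called in T + WSD against T (21.7 ± 10.6 CPM in C, 17.6 ± 4.30 in T, 40.3 ± 7.88 in T + WSD; 1.19, adjusted p = 0.0345). The HEPHL1 call was lost without C1, C3 or T + WSD 7, 8, 9, 10 or 12 (adjusted p = 0.0529 to 0.181), and the HEPH call without T13, T14, T15, T16, T18 or T + WSD 8, 9 or 10 (0.0504 to 0.0762).

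In the iron-sensing list EPAS1, the hypoxia-inducible factor whose own transcript carries an iron-responsive element, rose. It ranged from 233 to 380 CPM in C, from 304 to 495 in T, from 413 to 684 in WSD and from 559 to 880 in T + WSD. Under the diet alone, all 6 WSD animals already exceeded every control, as in 0.230% of all tested genes, and WSD overlapped T + WSD. EPAS1 was not called in WSD against C. Each T + WSD animal exceeded every control and every T animal (log2 fold changes 1.02, adjusted p = 0.00226, and 0.61, adjusted p = 0.0262), as did 3.49% and 2.99% of all tested genes. With the mesothelial mean as a term these values were 0.46 (adjusted p = 1) and 0.14 (adjusted p = 0.883), where 0% of all tested genes were called. The call against T was lost without T13 or T + WSD 8 (adjusted p of 0.0576 to 0.0644). The IRE-binding aconitase ACO1 (0.13, adjusted p = 0.665) and FBXL5, which marks IREB2 for degradation (-0.060, adjusted p = 0.720), were not called. In the hepcidin list BMP2, an inducer of hepcidin, fell from 50.5 ± 30.2 CPM in C to 17.3 ± 2.22 in T + WSD (-1.54, adjusted p = 0.0123) and was also called lower against T (-1.56, adjusted p = 0.0250), except without T18 or T + WSD 8 (adjusted p of 0.0541 to 0.0609). NEO1, neogenin, fell from 173 ± 38.1 to 104 ± 10.8 CPM (-0.74, adjusted p = 0.00489), and for both genes all 6 animals were lower than every control, as were 4.12% of all tested genes. With the mesothelial mean as a term the log2 fold changes against C were 0.036 for BMP2, 0.66 for HEPHL1 and -0.030 for SLC39A8. They were -0.19 for NEO1 and -0.55 for HSCB, a chaperone of iron-sulfur cluster assembly. None of these 5 genes was called, in a fit that called 0 of all 15207 tested genes in T + WSD against C. HSCB had -0.30 with the lipid-associated macrophage term. ALAD, an enzyme of heme synthesis that was called higher (0.93), had 0.39 with the mesothelial term. Outside the library batch EPAS1 was called (0.91, adjusted p = 0.0436) and the other 6 of the 7 genes were not, with SLC39A8 at -1.63 (adjusted p = 0.171) and HEPHL1 at -1.34 (adjusted p = 0.403). The part of mesothelial cells in these results was not tested.

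**Figure D5:**
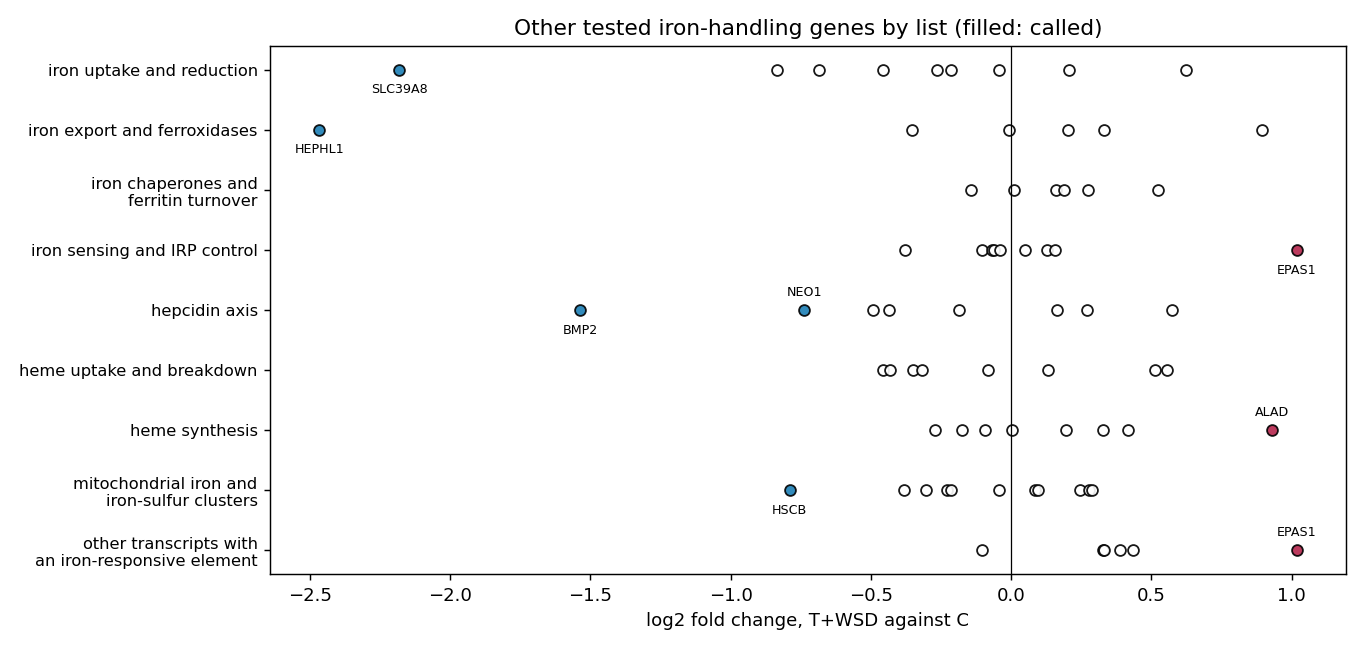
log2 fold change in T + WSD against C, on the x axis, of the 68 other tested iron genes, grouped by list on the y axis; filled points were called (red higher, blue lower) and open points were not. EPAS1 (1.02), which stands in 2 lists, and ALAD (0.93) lie to the right, and HEPHL1 (-2.47), SLC39A8 (-2.18), BMP2 (-1.54), HSCB (-0.79) and NEO1 (-0.74) to the left.

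Heme and iron-sulfur genes split. ALAD, the aminolevulinate dehydratase of heme synthesis, rose from 90.2 ± 33.2 CPM in C to 172 ± 36.0 in T + WSD (0.93, adjusted p = 0.0136), and in WSD it was at 168 ± 36.6. HSCB, a co-chaperone of iron-sulfur cluster transfer, fell from 12.5 ± 3.71 to 7.31 ± 0.865 CPM (-0.79, adjusted p = 0.00913). Its partner HSPA9 and the cysteine desulfurase NFS1 were called lower in T + WSD against WSD, at -0.95 (adjusted p = 0.0268) and -0.62 (adjusted p = 0.0343), and for both all 6 T + WSD animals were lower than every WSD animal, as were 1.37% of all tested genes. HSPA9 was at 330 ± 125 CPM in WSD and 171 ± 11.8 in T + WSD, and NFS1 at 37.9 ± 8.54 and 24.5 ± 2.85. Both calls were lost without WSD20, WSD24 or T + WSD 7, 8, 9 or 10, and that of HSPA9 also without T + WSD 11 (adjusted p up to 0.0866 for HSPA9 and 0.0960 for NFS1). The iron-sulfur assembly factor CIAO3 and heme oxygenase 2, HMOX2, were called in the interaction, and their values are given in the closing section.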

How the data were processed

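Ribosomal RNA was removed from the RNA of 24 omental biopsies, which was sequenced with single reads. Per the labels and the study's methods, the authors checked reads with FastQC 0.11.5, trimmed them with Trimmomatic 0.36, aligned them to rheMac8 with STAR 2.5.2b and used DESeq2 1.18.1. They deposited raw counts per gene, without normalization. The counting tool and its strand setting are not given in the sources used here. Symbols came from a gene name table (17621 rows) and, for 230 rows, from the study's tables. No gene positions or sequences were used here.

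Groups came from the sample labels. Counts were tested with edgeR 4.0.16 in R 4.3.3 (TMM, filterByExpr at 10 counts per library and 15 in total, quasi-likelihood F-test, glmQLFit legacy=TRUE and robust=TRUE), in 1 fit of 4 groups with Benjamini-Hochberg adjustment over 15207 genes. All p values are two-sided and, unless DESeq2 is named, edgeR's. Nothing in the labels pairs the animals. CPM used TMM library sizes, and log2 CPM a prior count of 2. The script was tested on simulated data. No 2 libraries of a group were identical (60 pairs). The floor of 3 counts covers counting error only, whereas the SEs come from the fit and include the spread between animals.

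The 10 genes and all lists were chosen with earlier results of these data known. FTL, and CDC42BPA of the lists, had been picked by the study on these animals. The text names the 10 genes, called genes of the iron lists, and the 3 genes most like each of the 10. One gene that this rule names is not reported here. Alternatives were DESeq2 1.42.0, other normalizations, filters and fit options, thresholds, library batch, marker list means as terms, and each animal left out. The lipid-associated macrophage and endothelial terms were chosen after seeing the data. Marker lists were mesothelial, adipocyte, macrophage, lipid-associated macrophage, erythroid and blood, hepatocyte, endothelial, B and plasma cell, T and NK cell, fibroblast and neutrophil.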

Additional observations from a re-analysis of the deposited data

Results flagged for a closer look

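Among the 40 combinations of gene and group examined, 4 held an animal far from the others of its group by Dixon's test on CPM. For normally distributed values chance gives this in about 1 of 20 groups, a rate that was not checked for these CPM. SLC40A1 stood at 547 CPM in C1, where the other controls lay between 161 and 282 CPM. CP stood at 12.2 CPM in T13 (163 counts), where the other T animals lay between 0.122 and 2.87 CPM, and at 1.93 CPM in T + WSD 11 (45 counts), where the others of that group lay between 0.536 and 0.998 CPM. IREB2 stood at 0.565 CPM in T + WSD 8, which is 2 counts, and the others lay between 0.0412 and 0.129 CPM. Those others had 1 to 3 counts, so T + WSD 8 stood apart in CPM and not in counts. Its library had the lowest total of all, 6899185 counts.

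The effect of testosterone differed between the diets for CIAO3 and HMOX2. The mean CPM of CIAO3 was 15.99 ± 0.616 for C, 18.5 ± 2.51 for T, 19.5 ± 2.75 for WSD and 15.2 ± 1.10 for T + WSD (SD, n = 6), an interaction of -0.56 on the log2 scale (SE 0.13, adjusted p = 0.0849, edgeR). HMOX2 averaged 35.2 ± 4.17, 39.5 ± 2.28, 47.3 ± 5.40 and 38.6 ± 2.29 CPM in the same order, an interaction of -0.46 (SE 0.12, adjusted p = 0.0965). Of the 24 fits that left out 1 animal, 8 kept the call of CIAO3 and 4 that of HMOX2, with adjusted p of 0.0428 to 0.158 and 0.0501 to 0.168. For both genes all 6 WSD animals exceeded every control, as in 0.230% of all tested genes.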

How the results depend on the processing

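No paired analysis was possible because the groups share no replicate numbers. The sum over several IDs was not run, since each gene had 1 ID. The values in the next paragraphs are numbers of genes called, and percentages are shares of all genes tested that were called in that setting.

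For the 10 genes, T + WSD against C (5 called) gave 2 outside the library batch, FTL and TFRC, where 78 genes were called over the whole table. It gave 1 at a fold change over 2 (5.52%) and 4 to 5 without 1 animal. With the mesothelial, adipocyte, lipid-associated macrophage or endothelial term it gave 0 (0% in each). WSD against C gave 1 with DESeq2 (1.58%). T + WSD against WSD (1) gave 2 with DESeq2 (2.54%), and 0 outside the batch (0%) and at a fold change over 2 (0.349%). It also gave 0 with the mesothelial (0.00658%) or lipid-associated macrophage (0%) term. T + WSD against T (4) gave 2 outside the batch (1.99%) and with the endothelial term (0.296%), and 3 to 4 without 1 animal. It gave 0 with the mesothelial or lipid-associated macrophage term (0% in both) and at a fold change over 2 (2.24%). The interaction (0) gave 1, FTL, with DESeq2 (2.77%), upper-quartile normalization (0.848%), at least 10 counts in every animal (1.28%), legacy=FALSE (0.980%) or the adipocyte term (1.10%). It gave 0 to 1 without 1 animal. T against C stayed at 0 in every setting run.

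For the other iron genes, T + WSD against C (7) gave 1 outside the batch (0.505%) and 0 with those 4 terms (0% in each). It gave 14 without a fold threshold (17.1%) and 4 at a fold change over 2 (5.52%). WSD against C (0) gave 4 with DESeq2 (1.58%) and 0 to 2 without 1 animal. T + WSD against WSD (2) gave 4 with DESeq2 (2.54%) or the adipocyte term (1.94%), 1 with upper-quartile normalization (0.697%), and 0 to 3 without 1 animal. It gave 0 with the 2 groups alone (0.316%), outside the batch (0%) and at a fold change over 2 (0.349%). It also gave 0 with the mesothelial (0.00658%), lipid-associated macrophage (0%) or endothelial (0.118%) term. T + WSD against T (3) gave 6 without a fold threshold (6.50%), and 0 to 4 without 1 animal. It gave 1 without the count filter (1.56%) or with the adipocyte (2.86%) or erythroid (1.72%) term. It gave 0 with the mesothelial (0%), lipid-associated macrophage (0%) or endothelial (0.296%) term. The interaction (2) gave 8 with DESeq2 (2.77%), 4 with the adipocyte term (1.10%), and 0 to 6 without 1 animal. It gave 1 with DESeq2's size factors, upper-quartile normalization, 10 counts in every animal or the mesothelial, macrophage, erythroid or endothelial term (0.519% to 1.28%). It gave 0 without a count filter, outside the batch, at an adjusted p under 0.05 or with the lipid-associated macrophage term (0.0129% to 0.289%). The causes were not tested.

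In T + WSD against C the sign turned for SLC40A1 (0.011 with DESeq2, 0.012 with its size factors, 0.019 with upper-quartile normalization, 0.0032 without ENSMMUG00000038258, 0.00020 with 10 counts in every animal, 0.30 outside the batch, 0.24, 0.13, 0.45, 0.018 and 0.10 with the mesothelial, macrophage, adipocyte, erythroid and lipid-associated macrophage terms, and -0.13 to 0.32 without 1 animal), HMOX1 (-0.037 with the lipid-associated macrophage term), NCOA4 (-0.024, -0.0017 and -0.042 with the mesothelial, adipocyte and lipid-associated macrophage terms, -0.021 to 0.062 without 1 animal), SLC11A2 (0.091 outside the batch, 0.14, 0.081 and 0.092 with those 3 terms, -0.14 to 0.029 without 1 animal), HEPHL1 (0.66) and BMP2 (0.036), the last pair with the mesothelial term. FTL stayed between 0.71 and 1.08 in every setting run.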
